A study of Mus musculus with 8 samples.

Results

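Itga4 encodes the integrin alpha 4 chain (CD49d), a cell surface adhesion receptor of leukocytes. The chain pairs with the integrin beta chains Itgb1 and Itgb7, and the pairs bind Vcam1, Madcam1 and fibronectin, which leukocytes meet on activated endothelium and in wounded tissue. Acetylated histone H3 (H3ac) marks active promoters and enhancers. Where the mark runs on for several kilobases, a peak caller may list one long peak or several close ones. A broad domain here is a region merged over the peak lists of all libraries, with a span of at least 4000 bp.

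The H3ac peaks described here are those of a window on chromosome 2 from 79.08 to 79.165 Mb (GRCm39), which holds 29 of the 193863 peaks that 4 libraries list on chromosomes. The window was given as the Itga4 gene, and that placement was taken as given, because the peak lists name no genes and no GRCm39 annotation was used here. The window was chosen by the width and summit height of its main peak in the very comparison described below. All values are therefore descriptions, with no test of the difference between treatments, and the 2 libraries per treatment would not allow an exact two-sided permutation p below 0.333.

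The mark was immunoprecipitated from chromatin of RAW 264.7 cells and sequenced. RAW 264.7 is an established mouse macrophage-like line. Per the labels, 2 libraries came from cells treated with Gel and 2 from cells treated with CuNZ@Gel, in a series on a nanozyme hydrogel for diabetic wounds, with 48 h of exposure to extracts. No group without any gel was analysed here, and 4 input libraries had no file used here. The single treatment protocol of the labels speaks of CuNZ@Gel extracts, so the Gel group rests on its treatment label. Whether the 2 libraries of a treatment are separate cultures is not stated, and their spread may be technical only. The macrophage label was not checked against marker genes, since the lists name none.

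The sequence just before the Itga4 start is shown because it is the piece of the promoter held in the reference used here. It is the RefSeq sequence of the 250 bases before the annotated start of Itga4 (gene 16401), at chr2:79255176-79255425 on the plus strand of build GRCm38.p6, which is not the build of the peaks. How far it lies from any peak was therefore not computed, and the word promoter in what follows refers to this sequence alone. Capitals mark the GC box, spelled GGGCGG, which was searched on both strands and found on the plus strand.
Itga4 promoter: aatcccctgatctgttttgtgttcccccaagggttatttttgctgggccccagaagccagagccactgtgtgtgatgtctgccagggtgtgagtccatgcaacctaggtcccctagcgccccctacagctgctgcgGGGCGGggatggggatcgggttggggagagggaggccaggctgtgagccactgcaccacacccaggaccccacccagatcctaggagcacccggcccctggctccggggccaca

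This promoter was rich in G and C but not in CpG pairs. Its GC content was 64%, above the median of 52.4% over 32851 promoters of the same length, of which 18.4% were richer. It held 6 CpG pairs, which equals the median of 6, and its observed over expected CpG ratio was 0.234 against a median of 0.373. The single GC box lay from base -114 to base -109 before the start, and 32.7% of all promoters held at least 1 such match. The letters GAGGAAGT of a PU.1-like site, TGACTCA of AP-1 and CACGTG of an E-box, searched on both strands with no overlap among them, had 0 matches here and occurred in 2.44%, 4.46% and 6.02% of promoters. The kappaB site of the immunoglobulin kappa enhancer also had 0 matches and occurred in 0.14% of promoters.

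H3ac at Itga4 formed one unbroken domain after Gel and a shorter, broken one after CuNZ@Gel. Merged over the 4 libraries, wherever peaks overlapped by at least 1 bp, the main domain ran over 10421 bp at chr2:79085272-79095692. After Gel, peaks covered 10361 ± 70.7 bp of it, and after CuNZ@Gel 5814 ± 311 bp (SD, n = 2), a difference of -4547 bp. The highest point of the domain, in multiples of the background of its library, was 65.1 ± 1.66 in Gel and 25.5 ± 2.10 in CuNZ@Gel (SD, n = 2), a ratio of 0.391. These are the values the window was chosen by, so their size against the replicate spread supports nothing further. The place of the summit was nearly the same in all 4 libraries.

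**Figure D1:**
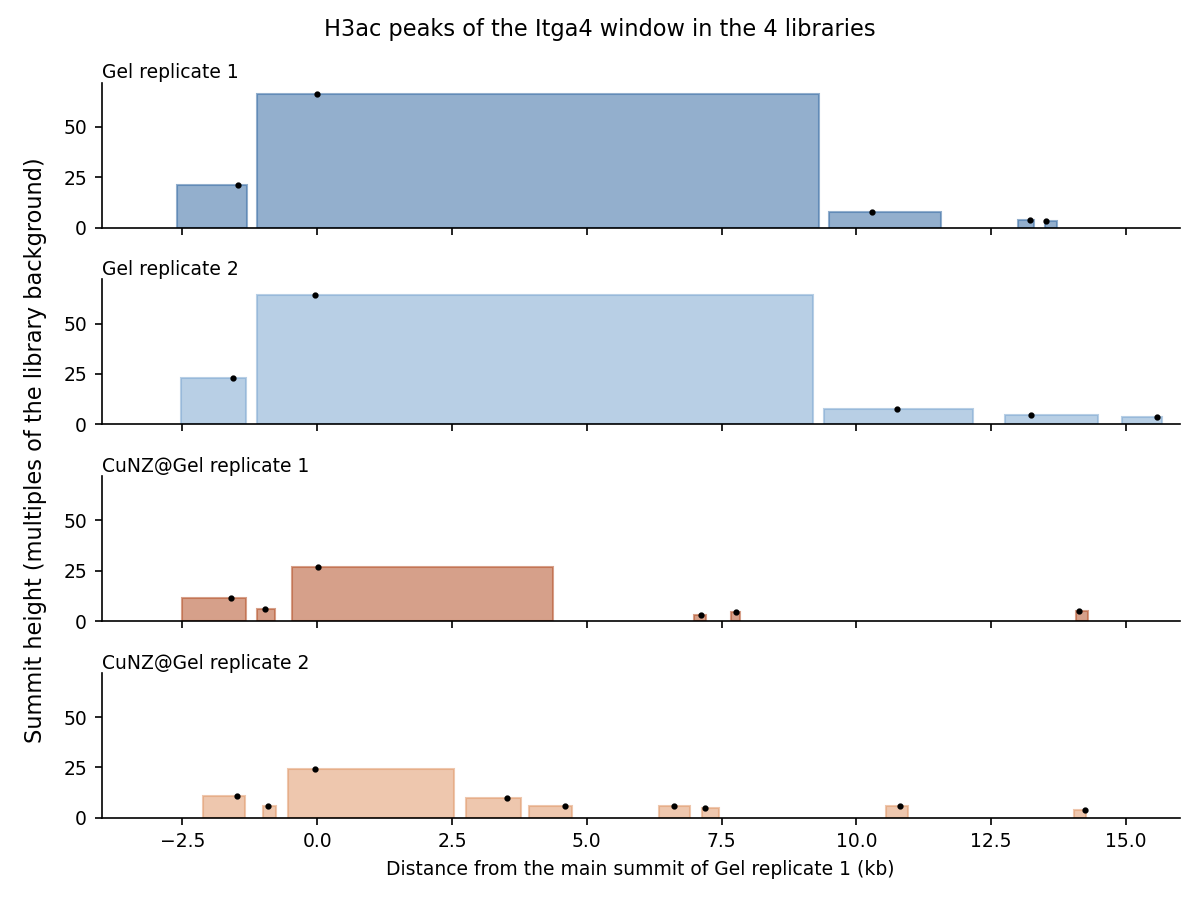
H3ac peaks in each library, drawn as boxes over the bases they cover, by distance in kb from the main summit of Gel replicate 1; the box height is the summit height in multiples of the library background and a dot marks the summit. Each Gel library has 1 long box about the main summit, where CuNZ@Gel replicates 1 and 2 have 4 and 6 shorter and lower ones; 4 small Gel peaks lie beyond the 16 kb shown.

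Each Gel library had the main domain as a single peak. In Gel replicate 1 it ran over 10411 bp at chr2:79085282-79095692, with an authors' fold of 54.7, a −log10 p of 429.96 and a summit at 79086393. In Gel replicate 2 it ran over 10311 bp at chr2:79085282-79095592, with a fold of 52.0, a −log10 p of 381.09 and a summit at 79086347. The 2 peaks started at the same base and ended 100 bp apart.

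In CuNZ@Gel replicate 1 the domain was split into 4 peaks. The main one ran over 4849 bp at chr2:79085919-79090767, with a fold of 21.1, a −log10 p of 97.0 and a summit at 79086404. Before it lay a peak of 339 bp at chr2:79085272-79085610, with a fold of 4.95, a −log10 p of 10.7 and a summit at 79085422. After a gap of 2611 bp came 2 weak peaks. One of 229 bp at chr2:79093379-79093607 had a fold of 2.70, a −log10 p of 3.60 and a summit at 79093512. One of 177 bp at chr2:79094064-79094240 had a fold of 3.82, a −log10 p of 6.82 and a summit at 79094160. So 1 peak held most of the bases and the other 3 stood as islands around it.

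CuNZ@Gel replicate 2 had 6 peaks in the same span. The main one ran over 3096 bp at chr2:79085842-79088937, with a fold of 17.4, a −log10 p of 59.5 and a summit at 79086345. The piece before it had 243 bp at chr2:79085381-79085623, a fold of 4.15, a −log10 p of 7.19 and a summit at 79085471. Gaps of only 220 and 163 bp set apart the next pieces, so the coverage near the main summit was less broken than the number of peaks conveys. The first of them had 1008 bp at chr2:79089158-79090165, with a fold of 7.06, a −log10 p of 16.1 and a summit at 79089917. The second had 800 bp at chr2:79090329-79091128, with a fold of 4.63, a −log10 p of 8.07 and a summit at 79090996. Beyond a gap of 1596 bp lay a pair of short pieces. One had 579 bp at chr2:79092725-79093303, with a fold of 4.24, a −log10 p of 7.07 and a summit at 79093003. The other had 308 bp at chr2:79093532-79093839, with a fold of 3.76, a −log10 p of 5.70 and a summit at 79093589.

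The 4 main summits lay within 59 bp of each other, so what differed was height and extent and not position. The longest unbroken peak was 10411 and 10311 bp in the Gel libraries, against 4849 and 3096 bp in those of CuNZ@Gel. Such a split into pieces was common: of 275 broad domains, meaning merged regions with a span of at least 4000 bp, that were 1 peak in each Gel library, 54.5% had at least 2 peaks in each CuNZ@Gel library. Since the comparison that chose the window also gives this count, nothing is read from it.

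The bases covered after Gel alone lay mostly toward the far end of the domain, away from the summit. Both CuNZ@Gel libraries were fully covered in the first 2 kb after the main summit, and from there to 4 kb they kept 1000 bp of each 1 kb bin in replicate 1 and 780 and 837 bp in replicate 2. Between 5 and 6 kb from the summit both Gel libraries were covered over all 1000 bp and both CuNZ@Gel libraries over 0 bp. The bin from 8 to 9 kb gave the same values. Of the 10421 bp, 4772 bp (45.8%) were covered in all 4 libraries, 2074 bp (19.9%) in both Gel and 1 CuNZ@Gel library, and 3465 bp (33.3%) in both Gel but no CuNZ@Gel library. Most of the last lay in 2 stretches, of 1596 bp at chr2:79091129-79092724 and of 1352 bp at chr2:79094241-79095592. Only 10 bp were covered in CuNZ@Gel and not in Gel, at the first bases of the domain.

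**Figure D2:**
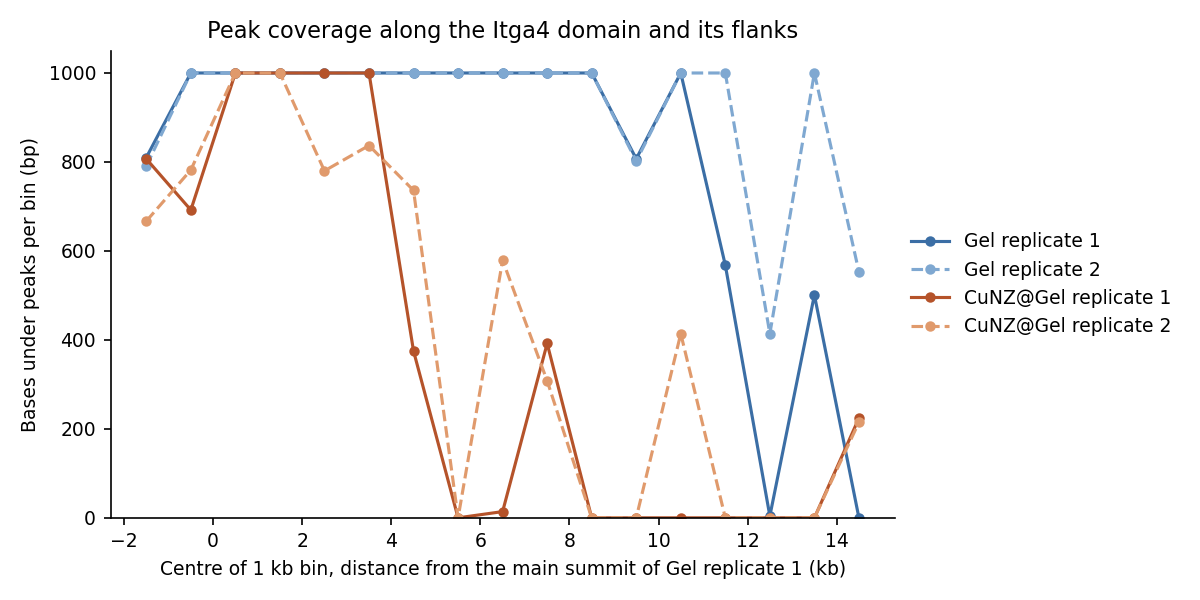
Bases under peaks in bins of 1 kb, by distance in kb of the bin centre from the main summit of Gel replicate 1, 1 line per library (dashed for replicate 2). From -1 kb to 9 kb the Gel lines are at 1000 bp, while both CuNZ@Gel lines are at 0 bp between 5 and 6 kb and again between 8 and 9 kb.

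Taken per group, the bases covered in either library of the group were 10411 bp for Gel and 6856 bp for CuNZ@Gel. The authors' deposited group lists hold what both libraries of a group share, 1 interval of 10311 bp for Gel and 5 intervals with 4772 bp for CuNZ@Gel. The Gel interval ranked 4 by width among 43947 intervals on chromosomes, and the longest CuNZ@Gel piece, of 3019 bp, ranked 205 among 28072.

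The heights rest on fragments at the summit. Solving the fold and the p of each peak for the number of fragments at its summit gave 306 and 274 for replicates 1 and 2 of Gel, and 93 and 59 for those of CuNZ@Gel. The exact Poisson intervals at 95%, which cover counting error only, were 273 to 342 and 243 to 308 in Gel, and 75.1 to 114 and 44.9 to 76.1 in CuNZ@Gel. Depth was gauged by the background value that occurs most often in a list, which was 4.62 and 4.28 fragments for Gel but 3.45 and 2.46 for CuNZ@Gel, whose libraries were thus shallower. In multiples of it the summits stood at 66.3 and 64.0 in Gel and at 27.0 and 24.0 in CuNZ@Gel, a description of the values that chose the window.

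**Figure D3:**
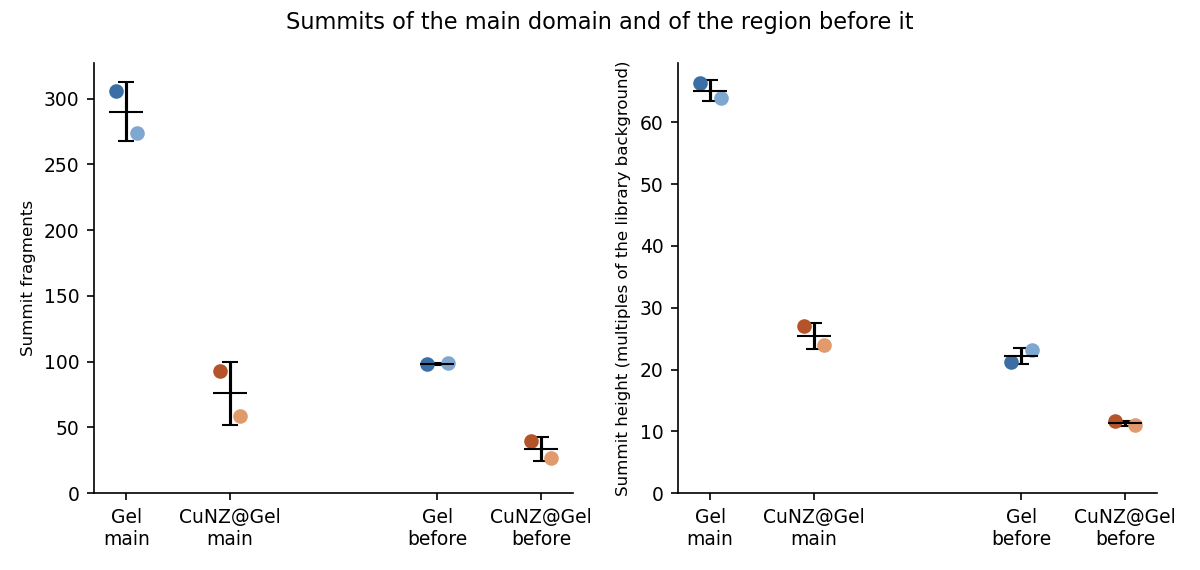
Summit fragments (left) and summit height in multiples of the library background (right) for the main domain and for the region before it; points are single libraries, and bars give the mean ± SD of the 2 libraries of a treatment. Scaling by background brings the treatments closer, and at the main summit Gel still stands at 65.1 and CuNZ@Gel at 25.5.

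A peak had to stand higher over background to be listed in the shallower libraries. At the library background the lowest listed summit was 2.82 and 2.80 times background in Gel but 3.19 and 3.66 times for replicates 1 and 2 of CuNZ@Gel. How much of the narrower coverage this accounts for was not tested. The main summit lay far above these limits in all 4 libraries, while the weak CuNZ@Gel peaks at the far end of the domain lay nearer to them. Their summits stood at 3.19 and 4.64 times background in CuNZ@Gel replicate 1 and at 5.70 and 4.88 times in replicate 2.

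The other 3 regions of the window with peaks in both treatments were also covered less in CuNZ@Gel. The region before the main domain, at chr2:79083796-79085091, is a separate peak in every library. It covered 1296 bp in Gel replicate 1 (fold 17.6, −log10 p 92.2, summit 79084930) and 1215 bp in Gel replicate 2 (fold 18.9, −log10 p 96.6, summit 79084825). It covered 1203 bp in CuNZ@Gel replicate 1 (fold 9.22, −log10 p 29.0, summit 79084801) and 767 bp in CuNZ@Gel replicate 2 (fold 8.10, −log10 p 19.6, summit 79084897). Its width differed little in 3 of the 4 libraries, and its height more.

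Its summit stood at 21.2 and 23.1 times background in Gel and at 11.6 and 11.0 times in CuNZ@Gel, a ratio of means of 0.510. In fragments these were 98 and 99 against 40 and 27. The main summit thus stood lower relative to its neighbour after CuNZ@Gel: main summit fragments were 3.12 and 2.77 times those of the neighbour in Gel and 2.33 and 2.19 times in CuNZ@Gel. This ratio is taken within a library and needs no scaling for depth. Its numerator is the summit the window was chosen by, so the lower values in CuNZ@Gel support nothing further. How often such a ratio is lower at other domains was not computed.

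The region after the main domain, at chr2:79095791-79098557, was nearly without peaks in the CuNZ@Gel lists. Gel replicate 1 had 2075 bp at chr2:79095886-79097960 (fold 6.32, −log10 p 19.4, summit 79096675), and Gel replicate 2 had 2767 bp at chr2:79095791-79098557 (fold 5.32, −log10 p 15.9, summit 79097157). CuNZ@Gel replicate 1 listed no peak there, and CuNZ@Gel replicate 2 had 414 bp at chr2:79096935-79097348 (fold 4.63, −log10 p 8.07, summit 79097199). The listed heights were 7.58 and 7.70 times background in Gel and 6.10 in CuNZ@Gel replicate 2. The treatments thus lay much farther apart in width than in listed height, but in CuNZ@Gel that height is known from replicate 2 alone. Replicate 1 listed no summit there, so its height is unknown and the heights of the treatments cannot be compared.

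Farther along, at chr2:79099144-79100883, the covered widths of the treatments lay apart and the heights overlapped. Gel replicate 1 had peaks of 293 bp at chr2:79099389-79099681 (fold 3.20, −log10 p 5.73, summit 79099609) and of 212 bp at chr2:79099897-79100108 (fold 2.50, −log10 p 3.79, summit 79099910). Gel replicate 2 had 1740 bp at chr2:79099144-79100883 (fold 3.78, −log10 p 7.51, summit 79099628). The 2 Gel libraries thus differed more from each other here than Gel replicate 1 did from CuNZ@Gel. CuNZ@Gel replicate 1 had 224 bp at chr2:79100460-79100683 (fold 4.05, −log10 p 7.54, summit 79100517), and CuNZ@Gel replicate 2 had 215 bp at chr2:79100440-79100654 (fold 3.11, −log10 p 4.15, summit 79100633). Heights of the tallest peaks were 3.68 and 4.43 times background in Gel and 4.93 and 4.07 in CuNZ@Gel, and these overlapped.

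The remaining 5 regions were weak peaks of 1 Gel library each, none of them shared. Gel replicate 1 had 272 bp at chr2:79105137-79105408 (fold 2.85, −log10 p 4.56, summit 79105369) and 186 bp at chr2:79126135-79126320 (fold 2.50, −log10 p 3.79, summit 79126277). Gel replicate 2 had 731 bp at chr2:79101331-79102061 (fold 3.22, −log10 p 5.55, summit 79101967), 222 bp at chr2:79105556-79105777 (fold 2.46, −log10 p 3.29, summit 79105693) and 175 bp at chr2:79123208-79123382 (fold 2.46, −log10 p 3.29, summit 79123223). All of them stood between 2.80 and 3.73 times background, where the lowest listed height was 2.82 and 2.80 in the Gel lists and the median 4.77 and 4.67.

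Over the whole window, peaks covered 14745 and 17161 bp in the Gel libraries, against 7021 and 7430 bp in those of CuNZ@Gel. The means were 15953 ± 1708 and 7226 ± 289 bp (SD, n = 2), so CuNZ@Gel had 45.3% of the Gel length. The number of peaks told less, with 7 and 7 in Gel and 6 and 9 in CuNZ@Gel, since the broken domain counts several times. The main domain made up 70.6% and 60.1% of the covered bases in Gel and 79.7% and 81.2% in CuNZ@Gel. Of the 9 regions in the window, 4 were covered less in both CuNZ@Gel than in both Gel libraries, where 38.8% of all 81544 merged regions were. Outside the window, the nearest peaks ended 20.5 to 20.9 kb before it and started 35.4 to 35.7 kb after it, so its exact limits cut through no peak.

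**Figure D4:**
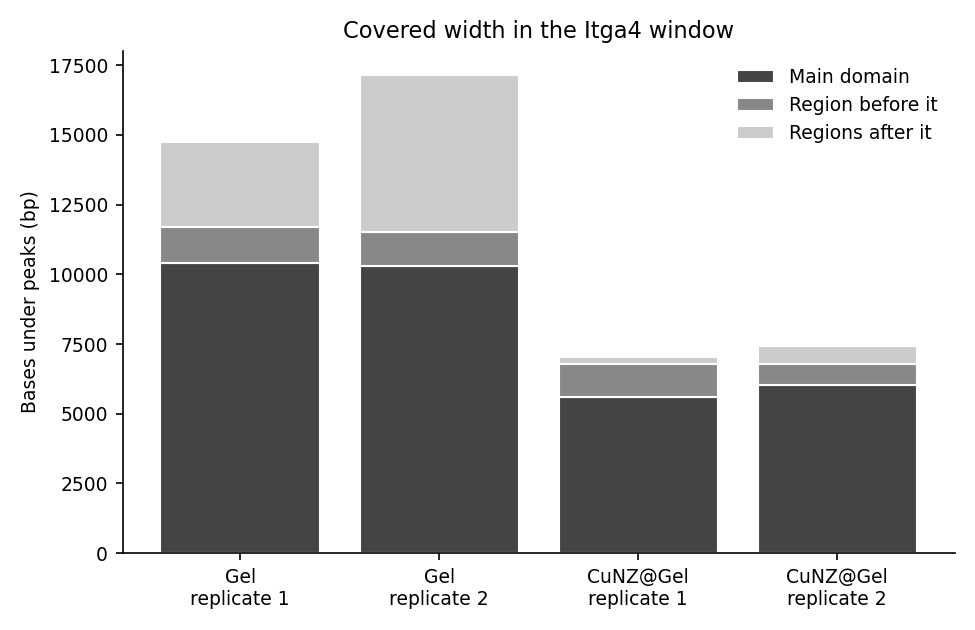
Bases under peaks in the window for each library, stacked by the main domain, the region before it and all regions after it. The totals are 14745 and 17161 bp in Gel and 7021 and 7430 bp in CuNZ@Gel, and the main domain is the largest part of each bar.

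Set among the 631 broad domains of the genome, all with peaks in all 4 libraries, the Itga4 domain differed between treatments in a common direction. The amount ranked high in bp of width lost and in the fall of summit height, and less high as a ratio of widths. The window was chosen by these widths and heights, so the ranks below are descriptions and support nothing further. Covered width was lower in both CuNZ@Gel than in both Gel libraries for 89.7% of the 631, and summit height over background was lower for 84.2%. The direction at Itga4 is therefore that of most broad domains. Over all 81544 merged regions, of which 21909 had peaks in all 4 libraries, the share for covered width was 38.8%. Peaks of at least 4000 bp numbered 411 and 415 in Gel against 123 and 88 in CuNZ@Gel. The span filter thus favours regions wide in Gel, and the shares among broad domains are partly set by it. Its loss of covered width, Gel minus CuNZ@Gel, was 4547 bp and ranked 2 among the 631, whose median was 1024 bp (quartiles 645 and 1502 bp). By the ratio of CuNZ@Gel to Gel covered width, 0.561 against a median of 0.783, it ranked only 52 from the lowest. Among all 21909 regions with peaks in all 4 libraries, whose median was 0.728, that ratio ranked 4705 from the lowest. By the ratio of summit heights, 0.391 against a median of 0.742 (quartiles 0.667 and 0.826), it ranked 4 from the lowest, and 25 among all 21909 regions with peaks in all 4 libraries.

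Among broad domains, the domain stood lower in the order of width and of height in CuNZ@Gel than in Gel, while it was still among the wider regions of the genome. Its span ranked 8, its mean covered width ranked 6 in Gel and 48 in CuNZ@Gel, and its mean summit height ranked 16 in Gel and 161 in CuNZ@Gel. Among all 21909 regions with peaks in all 4 libraries, the covered width also ranked 6 and 48, and the summit height ranked 60 and 898. Within the single lists, its main peak ranked 60 of 58612 and 68 of 60483 by height in the Gel lists, against 723 of 40075 and 1173 of 34693 in those of CuNZ@Gel. By width that peak ranked 4 and 8 in Gel and 55 and 246 in CuNZ@Gel. All these places rest on the values the window was chosen by, so the lower ones in CuNZ@Gel support nothing further.

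**Figure D5:**
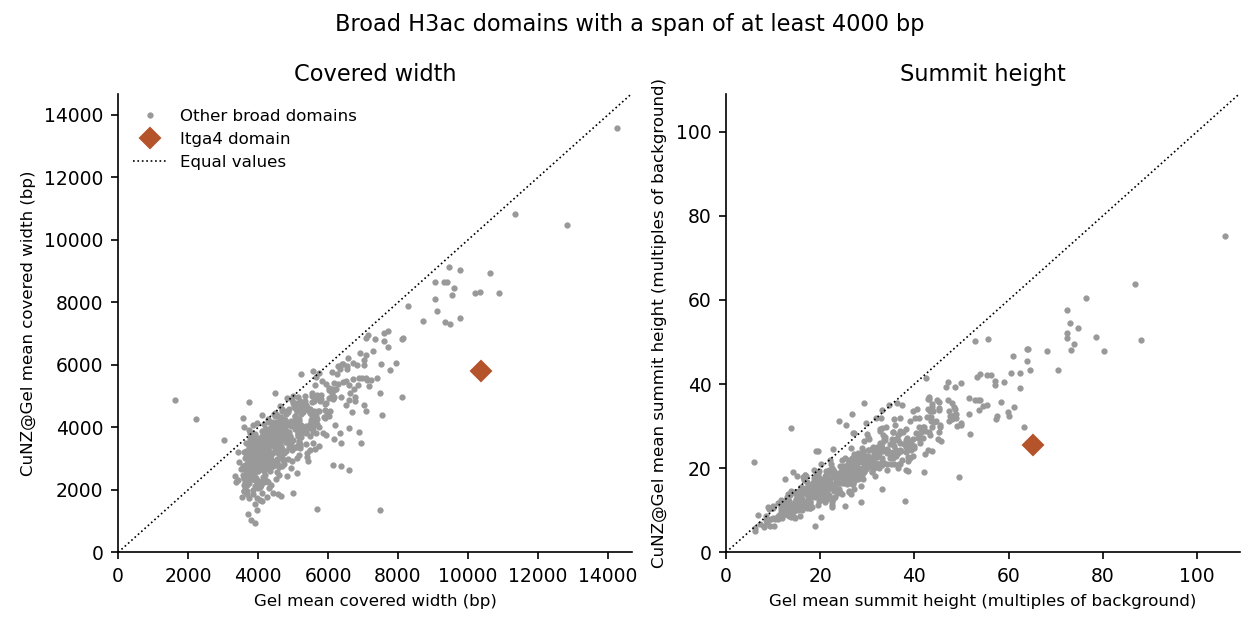
The 631 broad domains by mean covered width in bp (left) and mean summit height in multiples of background (right), Gel on the horizontal and CuNZ@Gel on the vertical axis; the dotted line marks equal values and the diamond the Itga4 domain. Most domains lie under the line, and Itga4, at 10361 and 5814 bp and at heights of 65.1 and 25.5, lies well under it in both.

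The domains beside it in the order of loss were all less wide in Gel. The one above it, at chr15:8996619-9004197, went from 7488 ± 45.3 bp after Gel to 1362 ± 9.90 bp after CuNZ@Gel (SD, n = 2), and its summit stood at 20.1 and 8.48 times background. Below it came chr2:145664169-145670790, with 5682 ± 1300 and 1393 ± 401 bp and heights of 17.7 and 11.4. Next was chr2:163479357-163486419, with 6607 ± 79.9 and 2626 ± 32.5 bp and heights of 49.5 and 18.0. Only the last was both tall in Gel and, at a height ratio of 0.364, as low as Itga4 in CuNZ@Gel relative to Gel.

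The domains most like Itga4 over the 4 libraries were found by the distance between their log2 covered widths, 1 value per library. The 5 nearest, at chr3:60379580-60389264, chr13:83671227-83680662, chr5:127686044-127694472, chr18:36413227-36423072 and chr3:58320816-58329340, had distances of 0.519 to 0.604 log2 units. None was a close match, since their CuNZ@Gel width was between 76.2% and 84.0% of their Gel width, where that of Itga4 was 56.1%. Their summit height ratios were 0.561 to 0.800.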

How the data were processed

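Each of the 4 H3ac libraries has a deposited peak list, and each treatment a group list. The submitters' processing notes name GRCm39 as the build and, as tools, MACS2 2.2.8, SAMtools 1.17, deepTools 3.5.6 and fastp. Which aligner and which calling options were used is not given in the sources used here. Per the labels' protocols, fixation took 10 min in 1% formaldehyde, and sheared fragments were 150 to 350 bp long. The deposited columns are start, end, a score, a fold (a ratio over background at the summit), a −log10 p, a −log10 q and the summit offset. The score is the authors' −log10 q times 10, cut to a whole number, for 99.9856% to 99.995% of the peaks of a list. Peaks were called per library. Fold and p are the authors' values per peak and were ranked within a list; a ratio of fold across lists, whose depths differ, is given once as a description.

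Summit fragments and background were solved from fold, taken as fragments plus 1 over background plus 1, and a Poisson p (relative tolerance 0.001). This succeeded for 100% of peaks. On 5000 peaks simulated with the same formulas it recovered 100% of the fragments, which checks the arithmetic and not whether the authors' caller used these formulas. Summit height is fragments over the commonest background of the list. Regions were merged over the 4 lists on the 19 autosomes, X and Y (Python 3.11.15, pandas 2.3.3, scipy 1.17.1), and positions are 1-based.

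The window, the measures and the lists were chosen with earlier results of these data known. The rule for named items was Itga4, the 2 domains above and below it by loss (it ranked 2, so only 1 lay above), and the 5 most alike. Planned lists of integrin partners, ligands, adaptors and cell type markers needed GRCm39 start sites and were not analysed here. The reference tables are of GRCm38.p6, and no coordinate was converted. The alternatives tried are given in the closing section.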

Additional observations from a re-analysis of the deposited data

How the results depend on the processing

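The Itga4 domain was covered less in CuNZ@Gel in each setting run for width, and stood lower in each setting run for summit height. Of 43 alternative values, 34 stayed within the spread between replicates (ranks and counts within 1.5 times) and 9 moved; all were planned except the summit ratio in fragments, which was chosen after seeing the data. The width difference of -4547 bp became -5315 bp with only peaks of a −log10 q of at least 5, and, in a separate setting, -7031.5 bp when regions were joined across gaps of up to 500 bp, which by construction brings the region before and the region after into the domain. The summit ratio of 0.391 became 0.361 with the authors' fold and 0.262 with fragments not scaled for depth. It stayed exactly the same with the stricter threshold, with lists of equal length and with the local background. Those settings altered neither the main summits nor their background, so their place among the 34 says nothing on how stable the ratio is. The rank of 2 by loss became 52 when ranked by ratio. The 566 broad domains that were narrower became 1529 of 1637 with gaps joined, 1573 of 1768 at a span of at least 3000 bp and 251 of 276 at 5000 bp, because these settings change how many domains there are; the share stayed between 87.5% and 95.4%. Leaving out 1 library gave width differences from -4767 to -4327 bp, window differences from -9935.5 to -7519.5 bp and summit ratios from 0.369 to 0.414. Ranks ran from 2 to 4, and the rank of 4 was without CuNZ@Gel replicate 1. Narrower domains ran from 426 of 463 without Gel replicate 2 to 583 of 611 without CuNZ@Gel replicate 1. With fewer libraries that must not overlap, a domain is more easily counted as narrower. No paired analysis was possible because no result comes from a test that a replicate block could enter. As a description only, same-numbered libraries differed by -4817 and -4277 bp in width, with summit height ratios of 0.407 and 0.375.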

Other observations

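The deposited CuNZ@Gel group list gives the broken Itga4 domain a summit strength that its pieces did not have in CuNZ@Gel replicate 2. In the authors' deposited table, 3 of its intervals, at chr2:79085919-79088937, chr2:79089158-79090165 and chr2:79090329-79090767, carry the same fold of 21.1 and the same −log10 p of 97.0. Both belong to the 1 peak of CuNZ@Gel replicate 1 that holds all 3. In CuNZ@Gel replicate 2 the peaks in the last 2 of these places had folds of 7.06 and 4.63. The summit offset is copied with them and is counted from the start of each interval, so for the last 2 intervals it points 3239 and 4410 bp beyond the real summit of that peak. Over the whole lists, 2106 of 28072 CuNZ@Gel intervals (7.50%) and 2180 of 43947 Gel intervals (4.96%) repeat the values of the interval before them.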
